A study of Mus musculus with 8 samples.

Results

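Genes of apoptosis, necroptosis, pyroptosis and the p53 response were followed in Neuro2a cells, a mouse neuroblastoma line, after plasmid CRISPR activation (CRISPRa). The set holds 40 genes chosen by symbol from a list of names, of 55367 genes in the deposited count table. CRISPRa tethers a transcriptional activator to a chosen DNA site through a Cas9 that can no longer cut. Here the carrier is sadCas9, the Staphylococcus aureus enzyme, fused to VP64, and the series is directed at the sodium channel gene Scn2a. For CRISPRa, sgRNA and the sadCas9-VP64 plasmid were given at 750 ng each. The no-sgRNA cultures received sadCas9-VP64, in an amount that the labels do not state, and nothing in place of the sgRNA is listed for them. Both groups therefore carry sadCas9-VP64, and an effect of the guide's target cannot be told apart from one of the added nucleic acid. The submitters call these samples preliminary. Poly(A) RNA of 8 samples is labelled, 4 in each group. Counts were analysed for CRISPRa replicates 2, 3 and 5 and for no-sgRNA replicates 2, 3 and 4. Nothing in the labels says that replicates came from separate transfections, so the p-values measure the spread between these libraries, which may be technical.

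Cell death programmes share a small set of switches. In the mitochondrial route, BH3-only proteins release Bax and Bak1 from the anti-apoptotic Bcl2 proteins, cytochrome c leaves the mitochondrion, and Apaf1 assembles the complex that activates Casp9. Death receptors act through Fadd and Casp8. When Casp8 is held back, Ripk1 or Zbp1 can engage Ripk3, which activates Mlkl, and Mlkl ruptures the plasma membrane in necroptosis. Inflammatory caspases cut Gsdmd, the pore of pyroptosis. The transcription factor p53, encoded by Trp53, induces Bax, Bbc3, Cdkn1a, Mdm2 and Ccng1 among many others, and interferons are known to induce Zbp1, Xaf1, Tnfsf10 and Mlkl.

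Library totals ran from 29739422 to 34248514 counts, and TMM scaling factors from 0.978 to 1.01. The share of all counts taken by the 40 genes was 0.148% to 0.154% with CRISPRa and 0.124% to 0.129% without the guide. Neuroblastoma markers were present, 14 genes summing to 2306 to 2599 CPM (counts scaled to library size, TMM-normalised) with CRISPRa and 2537 to 2732 CPM without the guide (Chga and Tubb3 higher, Phox2a and Hand2 lower). Of 8 haematopoietic markers, Adgre1, Itgam, Cd3e and Lyz2 had 0 counts in all libraries, and the list summed to 0.632 to 1.65 CPM over both groups. A list of 6 fibroblast markers summed to 14.6 to 21.4 CPM with CRISPRa and 28.6 to 32.4 CPM without the guide, with Col1a2 and Pdgfra lower and Col3a1 at 0. Of 6 endothelial and epithelial markers, Cdh5 was higher and Kdr and Epcam were at 0, and the list summed to 7.86 to 11.9 CPM and 10.3 to 14.1 CPM. The part of these shifts in the results below was not tested. The targeted gene Scn2a did not pass the threshold (log2 fold change 0.48, adjusted p 0.0899).

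The largest rises fell on Zbp1, the nucleic acid sensor of necroptosis, and on Xaf1, Mlkl and Gsdmd. Zbp1 and the death ligand gene Tnfsf10 were found in the CRISPRa libraries alone among the 6. Smaller rises were seen for Cdkn1a, Bid, Bax, Bbc3 and Bcl2l1, and Casp6 was the 1 gene of the set that fell. Of the 40 genes, 35 passed the filter on low counts and 11 were called changed at an edgeR adjusted p under 0.05, 10 higher and 1 lower. That is 31.4% of those tested, beside 18.7% of all 15117 tested genes, of which 9.47% were called higher and 9.25% lower. The groups did not overlap for 16 of the 35, 13 higher and 3 lower, beside 36.4% of all tested genes, 17.7% higher and 18.7% lower. Zbp1 and Tnfsf10 passed the filter only through the CRISPRa libraries, so their presence among the tested genes already required a difference. The median log2 fold change of the 35 was 0.12, against -0.0071 over all tested genes. Setting Zbp1 and Tnfsf10 to the bound given by 3 counts could not move this median, as both stay above it. Fold changes are given for the 32 genes with a mean of at least 0.5 CPM, 10 of which were called. In these bulk libraries, less RNA per cell and fewer cells carrying it cannot be told apart. With 3 libraries against 3, an exact permutation test cannot go below p = 0.1.

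As background, 10 genes of the set are known as interferon-inducible. They are Zbp1, Xaf1, Tnfsf10, Mlkl, Gsdmd, Fas, Casp8, Casp1, Casp4 and Pmaip1. Of these, 7 were tested and 5 were called, all higher. Zbp1 and Tnfsf10, both among the called genes, passed the filter only through the CRISPRa libraries, so their direction was set by the filter. Among the other 30 genes, 28 were tested, 5 were called higher and 1 lower. Both directions together made 21.4%, beside 18.7% of all tested genes, of which 9.47% were called higher and 9.25% lower. Of the 28 log2 fold changes 22 were above 0, beside 7404 of 15117 over all tested genes. The interferon-inducible list was drawn up with earlier results of these libraries known, so its direction is not independent evidence.

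**Figure D1:**
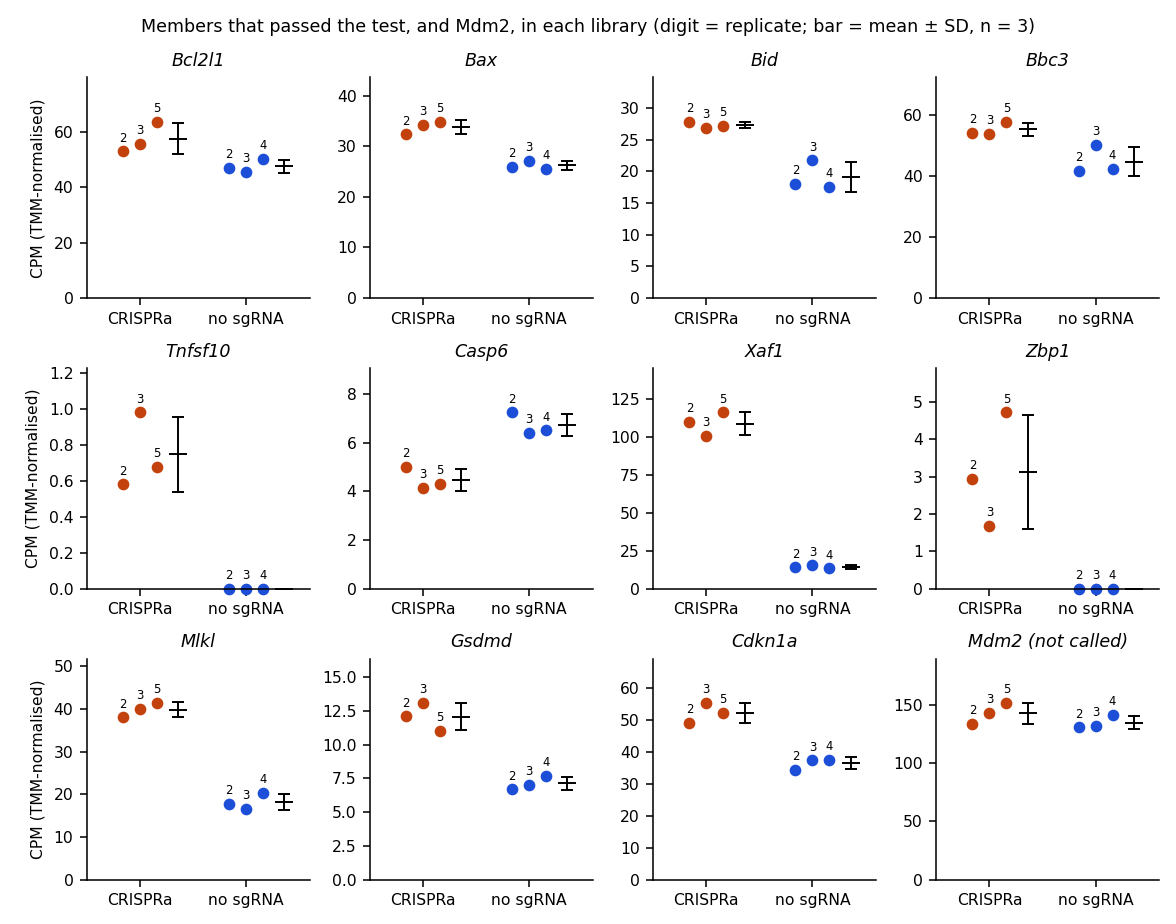
TMM-normalised CPM (y axis, from 0) in each library of the 11 genes that passed the test and of Mdm2, which did not; orange points are CRISPRa, blue points no sgRNA, digits are replicate numbers and the bar is the mean ± SD (n = 3). The groups are apart in the first 11 panels, with every no-sgRNA library at 0 for Zbp1 and Tnfsf10, and they overlap for Mdm2.

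Promoter sequences were read for 36 of the 40 genes from RefSeq (GRCm38.p6), each spanning 250 bases before to 50 after an annotated start. Zbp1, Gsdmd, Pmaip1 and Tnfrsf10b were not among them. Both strands were searched for the core of the interferon-stimulated response element (GAAA, any 2 bases, GAAA) and for the STAT site TTCNNNGAA. They were also searched for CATG, any 6 bases, CATG, letters at the core of adjoining p53 sites, and for 1 form of the NF-kB consensus. The first was found for Cflar and Ripk1 (2 of 36 genes, against 3.99% of 27025 genes with a promoter). The STAT site was found for Casp12, Fas, Ripk1 and Tnfrsf1a (4 of 36, against 9.55%). The CATG pair were found for Cdkn1a alone (1 of 36, against 0.833%), and the NF-kB site for Trp53 alone (against 0.174%). None of the 4 was found in the windows of Xaf1, Mlkl or Tnfsf10. After the letters had been seen, GAAANGAAA, in which the repeat is 1 base apart, was added. It was found for Xaf1, Bcl2l1, Cdkn1a, Casp8 and Birc2 (5 of 36, against 3.70%). Because these letters were chosen after the sequences were seen, setting their share against 3.70% is not a test. The set had 50 windows for its 36 genes, against 32851 windows for 27025 genes, and more windows allow more matches. A match is a run of letters, not a shown binding site.

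Xaf1 and Mlkl are shown for their fold changes, the largest with a RefSeq window, Cdkn1a for the CATG pair and Ripk1 as a gene with the response element core that was not called. All are printed 5′ to 3′ with matched letters in capitals. Xaf1 (chr11:72301379-72301678, plus strand) holds GAAACGAAA from base 11 after the start. Mlkl (chr8:111338156-111338455, minus strand) holds no match. The more upstream of the Cdkn1a starts (chr17:29090729-29091028, plus strand) holds the CATG pair from 48 bases before the start (29090931 to 29090944) and, further upstream, a GAAANGAAA match on the opposite strand. The second Ripk1 start (chr13:34002624-34002923, plus strand) holds the response element core from 5 bases before the start. It overlaps a STAT site, and another STAT site lies 108 bases before the start.
Xaf1: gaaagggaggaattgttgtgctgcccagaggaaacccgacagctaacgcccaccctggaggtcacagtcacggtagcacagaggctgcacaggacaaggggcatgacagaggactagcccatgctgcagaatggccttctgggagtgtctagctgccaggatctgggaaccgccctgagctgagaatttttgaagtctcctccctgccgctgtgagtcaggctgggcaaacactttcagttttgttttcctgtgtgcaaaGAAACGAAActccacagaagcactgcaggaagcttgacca
Mlkl: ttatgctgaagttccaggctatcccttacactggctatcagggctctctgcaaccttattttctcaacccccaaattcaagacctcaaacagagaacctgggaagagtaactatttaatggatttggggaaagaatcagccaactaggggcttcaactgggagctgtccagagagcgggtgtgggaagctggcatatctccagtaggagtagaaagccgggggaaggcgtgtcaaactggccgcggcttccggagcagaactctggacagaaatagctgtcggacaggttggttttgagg
Cdkn1a: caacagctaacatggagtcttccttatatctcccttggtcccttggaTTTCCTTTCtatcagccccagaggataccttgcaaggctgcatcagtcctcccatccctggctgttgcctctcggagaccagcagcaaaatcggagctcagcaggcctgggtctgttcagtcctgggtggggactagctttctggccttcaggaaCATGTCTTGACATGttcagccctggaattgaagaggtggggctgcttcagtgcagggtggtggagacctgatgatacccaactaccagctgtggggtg
Ripk1: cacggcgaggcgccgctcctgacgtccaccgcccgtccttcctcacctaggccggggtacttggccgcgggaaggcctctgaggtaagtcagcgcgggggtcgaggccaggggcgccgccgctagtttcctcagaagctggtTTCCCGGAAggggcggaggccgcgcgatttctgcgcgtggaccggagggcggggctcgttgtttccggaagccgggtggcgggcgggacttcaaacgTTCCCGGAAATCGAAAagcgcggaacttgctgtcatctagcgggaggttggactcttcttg

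Of the necroptosis genes, Zbp1 and Mlkl were called higher and Ripk3 was not called. Zbp1 (chromosome 2, 173206612 to 173218923, GRCm38) senses Z-form nucleic acids and recruits Ripk3. It had 101, 55 and 153 counts in CRISPRa replicates 2, 3 and 5 and 0 in every no-sgRNA library. This corresponds to 3.11 ± 1.52 CPM (SD, n = 3), and to at least 31.7-fold more than the 3 counts per library taken as the limit of detection (edgeR adjusted p 1.36e-05). Replicate 5 held the highest value and replicate 3 the lowest. Mlkl (chromosome 8, 111311797 to 111338177), the executioner that Ripk3 phosphorylates, stood at 38.0, 40.1 and 41.4 CPM with CRISPRa and 17.7, 16.6 and 20.3 CPM without the guide. All 3 CRISPRa libraries were near 40 CPM, far above the controls. The log2 fold change was 1.13 (SE 0.10, adjusted p 1.32e-06), or 2.19-fold. Ripk3 itself was scarcely detected, with 23, 14 and 15 counts against 6, 15 and 3. Its mean lay under 0.5 CPM, the groups overlapped and it was not called (adjusted p 0.320). In the no-sgRNA libraries Mlkl was at 7.91 ± 0.822 CPM per kilobase of exon and Ripk3 at 0.116 ± 0.0932 (SD, n = 3).

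Among the 5 pyroptosis genes Gsdmd passed the filter and was called higher. Gsdmd (chromosome 15, 75862327 to 75867408) was at 12.1, 13.08 and 11.04 CPM with CRISPRa and 6.69, 7.04 and 7.68 CPM without the guide. The groups did not overlap, and the log2 fold change was 0.76 (SE 0.14, adjusted p 0.00144), or 1.69-fold. Its activators Casp1 and Casp4, their relative Casp12 and the inflammasome adaptor gene Pycard did not pass the filter. Casp1 had 10 counts in CRISPRa replicate 2 and 0 in the other 5 libraries. Casp4 had 4, 3 and 6 counts against 0, 0 and 6. Casp12 had 2 counts in CRISPRa replicate 5 and 0 elsewhere. These 3 caspase genes lie side by side on chromosome 9 between 5298508 and 5373032. Pycard had 2, 1 and 6 counts against 6, 8 and 12, and 12.8% of its exonic bases lie opposite Gm45205. In raw counts the Pycard groups met at 6. They were apart, with CRISPRa lower, only after scaling (0.185 CPM in CRISPRa replicate 5, 0.197 CPM in no-sgRNA replicate 2). With so few counts no fold change is given. The floor of 3 counts corresponds to 0.0871 to 0.101 CPM, and Casp1, Casp4 and Casp12 were at or under it in most libraries of 1 or both groups.

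Xaf1 was the largest rise among genes that were also present in the controls. Xaf1 (chromosome 11, 72301629 to 72313733) binds Xiap and opposes its block of caspases. It had 110, 101 and 116 CPM in the CRISPRa libraries and 14.1, 15.6 and 13.5 CPM in the no-sgRNA libraries. Each group was tight, and the log2 fold change was 2.92 (SE 0.09, adjusted p 2.10e-12), or 7.57-fold (95% interval 6.64 to 8.63). The inhibitors of apoptosis Xiap, Birc2 and Birc3 were not called. Xiap stood at 42.3 ± 1.83 CPM against 36.4 ± 1.34 CPM (SD, n = 3) with no overlap, a log2 fold change of 0.22 (SE 0.08, adjusted p 0.0733). Xiap was called when the fit held only the libraries numbered 2 and 3 (adjusted p 0.0393). Birc2 and Birc3, the ubiquitin ligases of the TNF receptor complex, had log2 fold changes of 0.09 and 0.04 with overlapping groups (adjusted p 0.576 and 0.882). Diablo, released from mitochondria to neutralise these inhibitors, had 0.31 (SE 0.19, adjusted p 0.289). Its value is uncertain, since 23.5% of its exonic bases lie opposite another gene and 17.6% of its 50-base words occur in other genes. In the no-sgRNA libraries Xaf1 was, per kilobase, below Xiap (3.07 ± 0.226 against 3.85 ± 0.142 CPM per kilobase, SD, n = 3); with CRISPRa it stood at 23.2 against 4.47.

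Of the 4 death ligand and receptor genes 1 was called, and of the 3 adaptors and regulators 0, beside 18.7% of all tested genes. The called gene, Tnfsf10, passed the filter on low counts only through the CRISPRa libraries. Tnfsf10 (chromosome 3, 27317028 to 27342427) encodes TRAIL, the ligand of Tnfrsf10b. It had 20, 32 and 22 counts with CRISPRa and 0 in each control library, was called higher (adjusted p 0.000591) and gets no fold change at a mean under 0.5 CPM. Tnfrsf10b had 10, 26 and 10 counts against 22, 16 and 6, with full overlap (adjusted p 0.965). Fas was nearly as low, at 1.33, 1.13 and 1.23 CPM against 0.852, 1.01 and 2.02 CPM, and was not called. No-sgRNA replicate 4 alone was above the CRISPRa range. Tnfrsf1a, the main TNF receptor, was abundant at 115 ± 6.93 against 101 ± 1.57 CPM (SD, n = 3). Its groups did not overlap, and its log2 fold change of 0.18 (SE 0.07) did not pass the threshold (adjusted p 0.0694). Tnfrsf1a was called in DESeq2 (adjusted p 0.0487) and without CRISPRa replicate 5 (0.0306). Cflar, the catalytically inactive Casp8 relative that blocks receptor signalling, was at 31.8, 30.3 and 32.2 CPM against 27.3, 28.8 and 22.7 CPM. Its log2 fold change was 0.26 (SE 0.10, adjusted p 0.0899), and 7.04% of its 50-base words occur in other genes. The adaptor gene Fadd (log2 fold change -0.01, 95% interval -0.27 to 0.24) and the kinase gene Ripk1 (0.14, -0.09 to 0.38) were not called and their groups overlapped. The interval for Ripk1, whose printed promoter holds the response element core, includes 0.

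Of the apoptotic caspases, Casp6 was called and it was lower. Casp6 (chromosome 3, 129901425 to 129914103), an executioner caspase that cleaves nuclear lamins, stood at 4.99, 4.14 and 4.32 CPM with CRISPRa and 7.24, 6.40 and 6.51 CPM without the guide. The groups did not overlap and the log2 fold change was -0.58 (SE 0.17, adjusted p 0.0270). The call was lost without CRISPRa replicate 3 (adjusted p 0.101), CRISPRa replicate 5 (0.0635), no-sgRNA replicate 2 (0.0797) or no-sgRNA replicate 3 (0.0561). The initiator gene Casp8 was at 4.11 ± 0.532 against 3.48 ± 0.660 CPM (SD, n = 3), with a 95% interval of -0.23 to 0.71 for its log2 fold change. Casp9 and Apaf1, the initiator and scaffold of the apoptosome, had log2 fold changes of 0.05 (-0.13 to 0.23) and 0.04 (-0.15 to 0.24). Casp2, a stress-activated initiator, was at 41.1 ± 0.896 against 44.1 ± 0.547 CPM (SD, n = 3) without overlap, a log2 fold change of -0.10 (SE 0.08) that was not called (adjusted p 0.395).

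**Figure D2:**
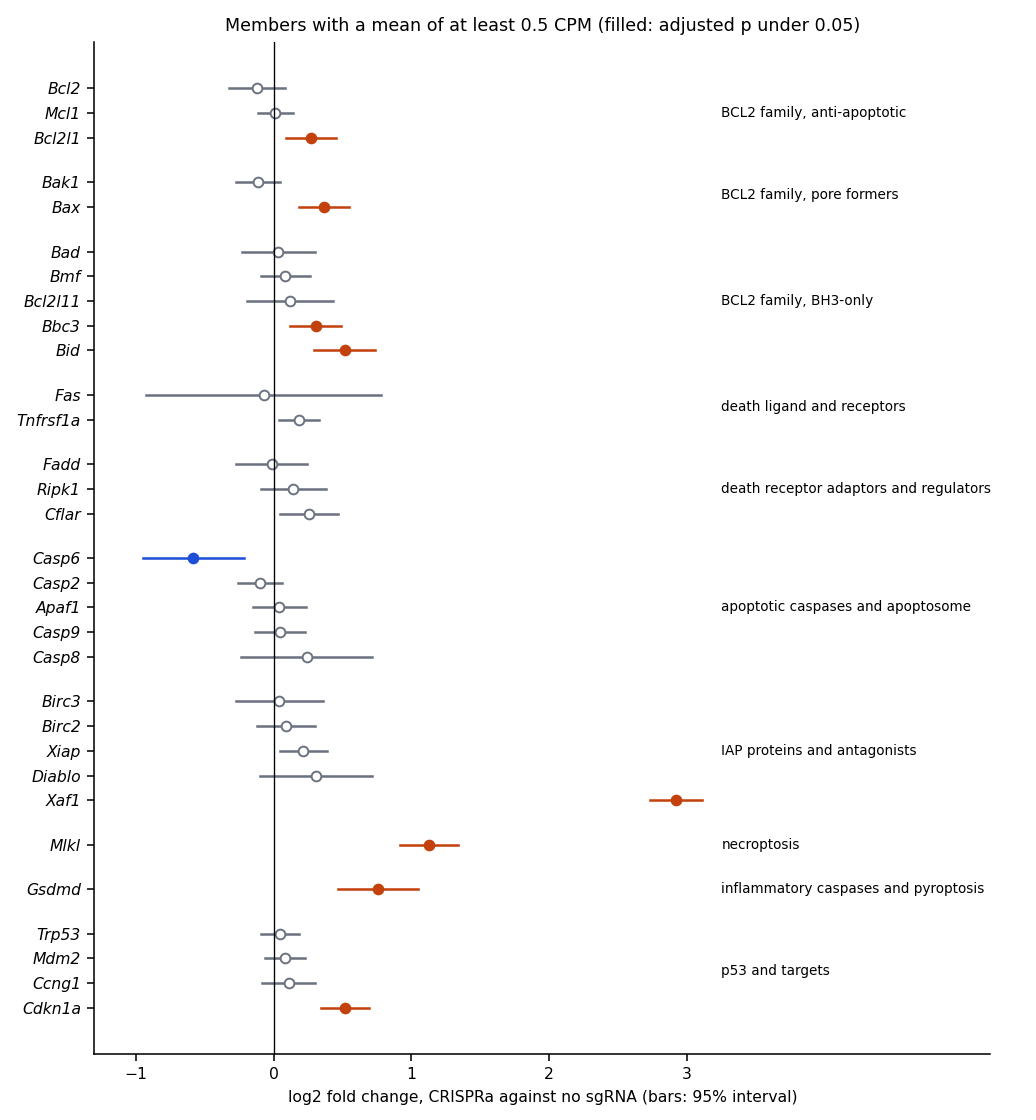
Log2 fold change (x axis) of 31 genes of the set with a mean of at least 0.5 CPM, grouped by role; points are edgeR estimates, bars 95% intervals, orange filled points called higher, blue filled points called lower and open points not called. Zbp1 is left out because its controls are at 0. Xaf1 stands at 2.92, Mlkl at 1.13 and Gsdmd at 0.76, and the called BCL2 family genes lie between 0.27 and 0.52.

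Of the 10 tested BCL2 family genes in the set, 4 were called and all 4 were higher, beside 9.47% of all tested genes called higher. They were the BH3-only genes Bid and Bbc3, the pore former Bax and, of 3 anti-apoptotic genes, Bcl2l1. Bid (chromosome 6, 120891930 to 120916853), which Casp8 cleaves to link receptors to mitochondria, was at 27.9, 26.9 and 27.2 CPM with CRISPRa and 18.0, 21.8 and 17.6 CPM without the guide. The CRISPRa libraries were close together and above every control, for a log2 fold change of 0.52 (SE 0.10, adjusted p 0.00319). Bax (chromosome 7, 45461697 to 45466898), a pore former, was at 32.4, 34.2 and 34.9 CPM against 26.0, 27.2 and 25.6 CPM. Its log2 fold change was 0.37 (SE 0.09, adjusted p 0.00830). Bbc3 (chromosome 7, 16308393 to 16318205), which encodes PUMA, was at 54.2, 53.7 and 57.8 CPM against 41.6, 50.1 and 42.4 CPM. It rose by 0.31 on the log2 scale (SE 0.09, adjusted p 0.0225). The anti-apoptotic Bcl2l1 (chromosome 2, 152780668 to 152831728) was at 52.9, 55.7 and 63.6 CPM against 46.9, 45.4 and 50.2 CPM, a log2 fold change of 0.27 (SE 0.09, adjusted p 0.0365). Each of these 4 genes had groups that did not overlap. The call for Bbc3 was lost without CRISPRa replicate 5 (adjusted p 0.0551), no-sgRNA replicate 2 (0.0898) or no-sgRNA replicate 4 (0.0738). That for Bcl2l1 was lost without CRISPRa replicate 3 (0.0655) or 5 (0.119) and without no-sgRNA replicate 2 (0.0944) or 3 (0.140). Exons of Bcl2l13 on the opposite strand cover 17.7% of Bid, and Gm45808 overlaps 12.2% of Bax, and whether counting used strand is not given in the sources used here.

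The remaining BCL2 family genes of the set were not called. Outside the set, the family gene Bok was called lower (log2 fold change -0.26, SE 0.08, edgeR adjusted p 0.0342). Mcl1 was the most abundant member of the set per kilobase, at 67.7 ± 1.77 CPM per kilobase without the guide (SD, n = 3). Its CPM differed little between groups, at 233 ± 3.65 against 231 ± 6.06 (SD, n = 3), with a 95% interval of -0.12 to 0.14 for the log2 fold change. Bcl2 (-0.12, -0.32 to 0.08) and the second pore former Bak1 (-0.11, -0.27 to 0.04) had intervals that include 0, and the Bak1 groups did not overlap, with CRISPRa lower. Annotated exons of Ggnbp1 lie opposite 25.5% of Bak1. The BH3-only genes Bcl2l11, Bad and Bmf had log2 fold changes of 0.12, 0.03 and 0.09 (adjusted p 0.623, 0.888 and 0.514), with overlapping groups for all 3. Pmaip1, which encodes NOXA and is a known p53 target, had 0 counts in all 6 libraries, which allows up to 0.0871 to 0.101 CPM.

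Of the 5 p53 targets named above, Cdkn1a, Bax and Bbc3 were called higher, beside 9.47% of all tested genes. Bax and Bbc3 are described with the BCL2 family, and Mdm2 and Ccng1 were not called. The 5 do not cover every p53 target in the set, as Pmaip1, with 0 counts in all 6 libraries, is left out. Also left out are Fas, Tnfrsf10b and Apaf1, which were tested and not called (edgeR adjusted p 0.927, 0.965 and 0.792). The count among the 5 is therefore not a share over all p53 targets of the set. Cdkn1a (chromosome 17, 29090976 to 29100727) encodes p21, the inhibitor of cyclin-dependent kinases. It stood at 48.9, 55.2 and 52.2 CPM with CRISPRa and 34.3, 37.3 and 37.5 CPM without the guide. The lowest CRISPRa library was above the highest control, and the log2 fold change was 0.52 (SE 0.08, adjusted p 0.000521), or 1.43-fold. An unnamed transcript on the opposite strand overlaps 7.68% of its exonic bases. Trp53 was at 138, 143 and 153 CPM against 140, 142 and 138 CPM, so its groups overlapped (log2 fold change 0.05, 95% interval -0.09 to 0.18, adjusted p 0.660). Mdm2, the p53 ubiquitin ligase and a direct p53 target, was at 143 ± 9.03 against 135 ± 5.86 CPM (SD, n = 3), with a log2 fold change of 0.08 (-0.06 to 0.23, adjusted p 0.447). Ccng1 had 0.11 (-0.08 to 0.30, adjusted p 0.437). The upper bounds for Mdm2 and Ccng1, 1.17-fold and 1.23-fold, lay below the lower bound for Cdkn1a, 1.27-fold. No test between genes was made.

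**Figure D3:**
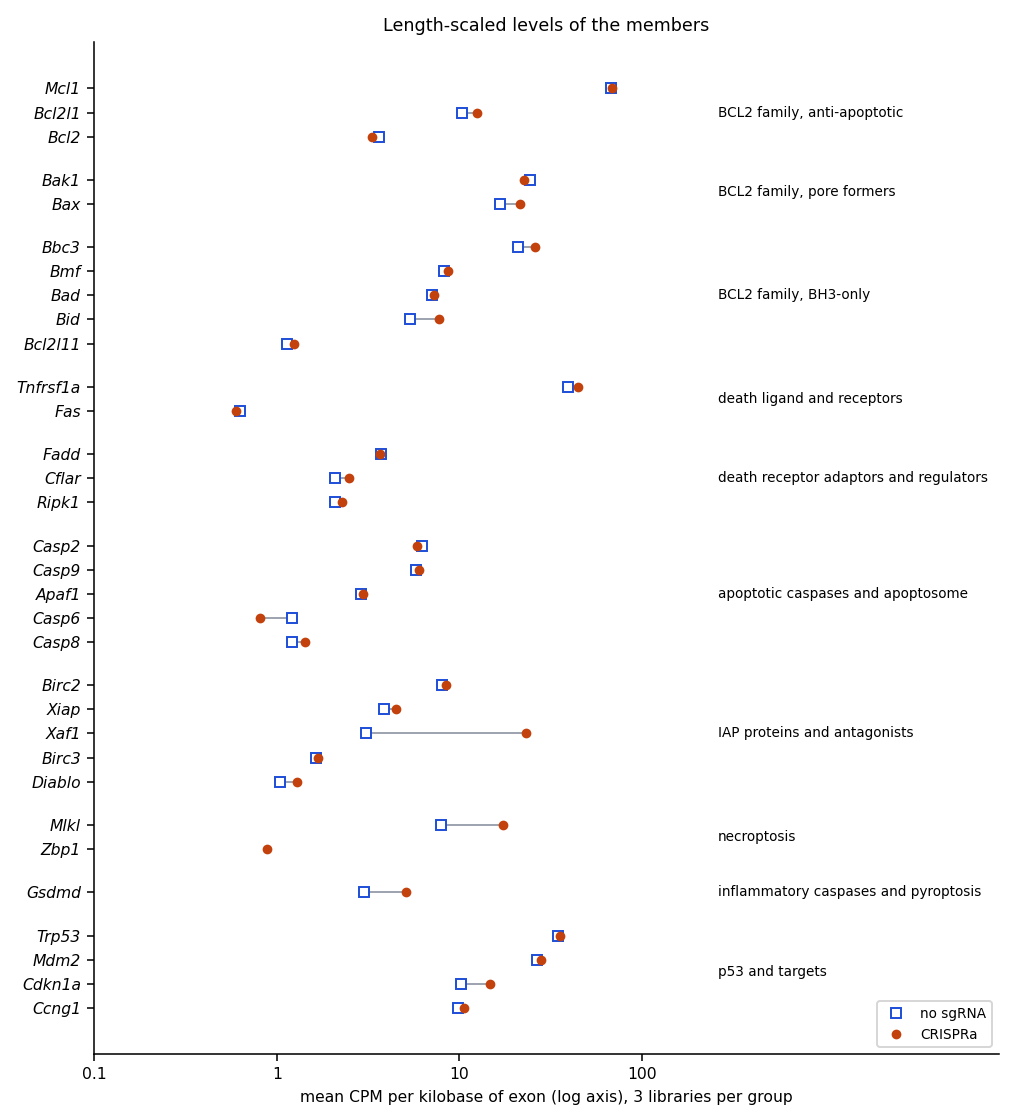
Mean CPM per kilobase of exon (x axis, log scale) of the 32 genes with a mean of at least 0.5 CPM, grouped by role; open blue squares are no sgRNA and orange points CRISPRa (n = 3 each). Mcl1 is the most abundant at 67.7 without the guide, the line for Xaf1 runs from 3.07 to 23.2, and Zbp1 has no square because its controls are at 0.

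Other p53 target genes, 24 in a list of well-known ones outside the set, went both ways. Of the 22 tested, 8 were called, 4 higher and 4 lower, beside 18.7% of all tested genes called. The list's median log2 fold change was 0.02 beside -0.0071 over all tested genes. Among the called genes, the largest rises were Trp53inp1 (33.9 ± 0.926 against 20.5 ± 3.72 CPM, log2 fold change 0.73, adjusted p 0.000699), a stress-induced partner of p53, Zfp365 (0.49, adjusted p 4.43e-05) and Btg2 (0.45, adjusted p 0.0395), an antiproliferative gene. Among the called genes, the largest falls were Ckap2 (59.3 ± 0.751 against 91.3 ± 10.8 CPM, -0.62, adjusted p 0.000146), a mitotic spindle gene, Ddit4 (-0.53, adjusted p 0.000184), which restrains mTORC1, and Gtse1 (-0.40, adjusted p 0.00556), a cell cycle gene that restrains p53. Btg2 was not called without CRISPRa replicate 2 or 3 (adjusted p 0.131 and 0.127) or without no-sgRNA replicate 3 or 4 (0.0838 and 0.143). The other 5 named here kept their call whichever library was left out.

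Other BCL2 family and mitochondrial genes that were called were all lower. Of 16 listed, 11 were tested and 4 were lower, beside 9.25% of all tested genes called lower. The list's median log2 fold change was -0.28. Bnip3, a hypoxia-induced mitophagy receptor, had 5421, 5099 and 2652 counts with CRISPRa and 6338, 5469 and 8871 without the guide (log2 fold change -0.77, adjusted p 0.0117). CRISPRa replicate 5 was the lowest library and no-sgRNA replicate 4 the highest. The call was lost without no-sgRNA replicate 4 (-0.57, adjusted p 0.0775) and in DESeq2. Its relative Bnip3l (-0.54, adjusted p 0.00659) and the outer membrane channel gene Vdac1 (-0.29, adjusted p 0.0133) were also lower. Of 14 other caspase and substrate genes, 12 were tested, 3 were higher and 3 lower, beside 18.7% of all tested genes called. Naip2 (0.94) and Naip6 (0.97), sensors of bacterial proteins, rose with adjusted p-values of 0.000810 and 0.000933. They belong to a family of close copies, so their reads may be split between copies. Birc5, the mitotic survivin gene (-0.49, adjusted p 0.00141), and the nuclear lamina gene Lmnb1 (-0.71, adjusted p 1.53e-05) fell.

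The TNF signalling list held 20 genes, 15 of them tested, with 3 higher and 1 lower. Rnf31, the catalytic subunit of the linear ubiquitin ligase at the TNF receptor, was at 67.5 ± 5.41 against 47.4 ± 3.73 CPM (0.51, adjusted p 0.000812). Daxx (0.34, adjusted p 0.00452) and the NF-kB subunit gene Rela (0.25, adjusted p 0.0355) also rose, and the death receptor gene Tnfrsf25 fell (-0.66, adjusted p 0.00790). Tnfrsf25 was not called without no-sgRNA replicate 3 (adjusted p 0.0522). Rela was not called without CRISPRa replicate 2 or 3 (0.137 and 0.0556) or no-sgRNA replicate 2 or 4 (0.134 and 0.0828). Of 13 further inflammasome and pyroptosis genes, 7 were tested and 2 rose, the channel gene Panx1 (0.65, adjusted p 0.0373) and the DNA sensor gene Aim2 (18.3 ± 0.953 against 13.3 ± 0.512 CPM, 0.46, adjusted p 0.00898). Panx1 was not called without CRISPRa replicate 2 or 5 (0.0535 and 0.157) or no-sgRNA replicate 2 or 3 (0.124 and 0.101). SDs here are over 3 libraries per group. Over the 5 lists, 24 of 67 tested genes were called (35.8%), 12 higher and 12 lower, beside 18.7% of all tested genes.

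**Figure D4:**
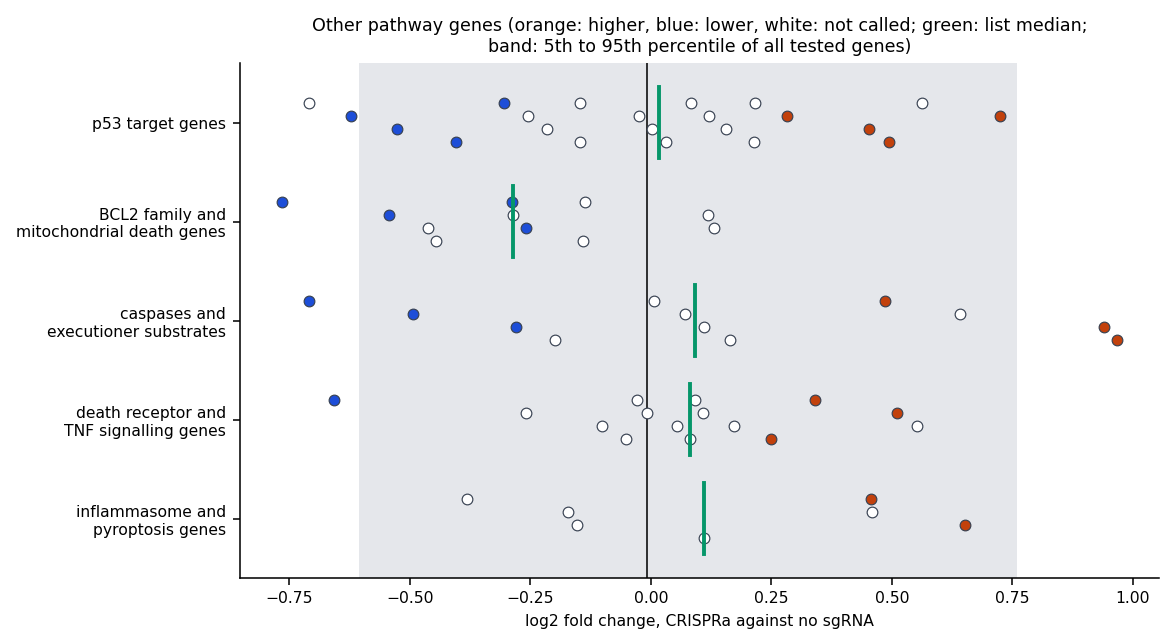
Log2 fold change (x axis) of the tested genes of 5 pathway lists outside the set; each point is a gene, orange called higher, blue called lower, white not called, the green line is the list median, the black line the median of all tested genes and the grey band their 5th to 95th percentile. The mitochondrial list has no called gene on the higher side and a median of -0.28, and the p53 list is split 4 to 4.

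In the authors' deposited table of 8 samples, which include these 6, 38 of the 40 genes were listed and 32 had an adjusted p. It was under 0.05 for 14, 13 higher and 1 lower when its sign is read as CRISPRa against no sgRNA. The share of all genes under 0.05 in that table was not computed, so these counts have no background beside them. Called in both were 9 genes, Zbp1, Xaf1, Mlkl, Gsdmd, Cdkn1a, Bid, Bax, Bbc3 and Bcl2l1, all 9 with the same sign. For Xaf1 the authors' deposited table gives a log2 fold change of 2.86 and for Cdkn1a 0.61. Called there but not in the 6 libraries were Tnfrsf1a (0.22, adjusted p 0.000260), Xiap (0.25, 0.00106), Cflar (0.34, 0.00150), Ripk1 (0.35, 0.0216) and Casp2 (-0.17, 0.0376), in the authors' deposited table. In the authors' deposited table Casp6 was at -0.31 (adjusted p 0.180) and Tnfsf10 at 7.01 with no adjusted p. Mdm2 (0.08, 0.262), Trp53 (-0.02, 0.860) and Ccng1 (0.12, 0.245) were not past the threshold in the authors' deposited table either.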

How the data were processed

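RNA-seq counts were analysed for 6 libraries, 3 per group, assigned by sample title. The authors deposited raw read counts per gene from STAR 2.5.1b and featureCounts on mm10, per the submitters' processing notes, and, in the same deposited table, each gene's exon length in bases. Strand use, annotation version and read layout are not given in the sources used here. Between 72.0% and 74.3% of the counts from 1 to 20 in a library were even, so counts need not be separate fragments, and floors cover counting error only. A second deposited table holds the authors' comparison of 8 samples in DESeq2's column layout, per the file headers: a signal (mean normalised count), log2 fold changes, a Wald score, p-values and adjusted p-values. These values were copied, not recomputed. Counts of the other 2 samples were not analysed here.

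The test was edgeR 4.0.16's quasi-likelihood F test in R 4.3.3 on all genes passing filterByExpr, TMM-scaled, with Benjamini-Hochberg adjustment over all 15117 tested genes and no covariate. It was tested on simulated data. SE is the log2 fold change divided by the square root of F, and 95% intervals use the fit's degrees of freedom. A gene at 0 in every no-sgRNA library was set against 3 counts per library. Shared sequence is the percentage of 50-base words in GENCODE M21 transcripts found in other genes. Coordinates are the deposited ones, equal to GENCODE M21 (GRCm38) for 39 of the 40 genes. Each gene of the set is named, and of each pathway list at most the 3 largest rises and 3 largest falls among called genes with a mean of at least 1 CPM. Bok is named in addition. Some genes of the pathway and marker lists enter the counts and medians but are not reported here by name. The genes and lists were chosen with earlier results of these data known. Alternatives were RLE and library-size scaling, no filter, a mean of at least 0.5 CPM, DESeq2 1.42.0, limma-voom (limma 3.58.1), an adjusted p under 0.01, each library left out, and the replicate number as a block.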

Additional observations from a re-analysis of the deposited data

How the results depend on the processing

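Across the alternatives run, the number of genes of the set called changed ran from 8 to 13, against 11, and the number called higher from 8 to 12, against 10. Leaving out 1 library gave from 8 to 11 called, from 8 to 10 higher and from 0 to 1 lower. An adjusted p under 0.01 left 8 called, 0 of them lower, with Casp6, Bbc3 and Bcl2l1 the genes lost. Zbp1, Xaf1, Mlkl, Gsdmd, Cdkn1a, Bid and Bax kept their call in each of 9 alternatives on scaling, filter, tool, threshold or block, and in each of the 6 fits short of 1 library. Tnfsf10 was called wherever it was tested. At an adjusted p under 0.01 the pathway genes called fell from 24 to 15, and those lower from 12 to 7, where the threshold itself is the cause; leaving out 1 library gave from 18 to 27 called, with 9 to 13 higher and 8 to 14 lower.

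Replicate numbers 2 and 3 occur in both groups, and nothing in the labels ties equal numbers together. Across 15117 genes the deviations from the group means had correlations of -0.028 and -0.023 for these numbers. A correlation over all genes does not measure a shared origin that touches few genes, and whether equal numbers share an origin was not tested. On the 4 libraries with these numbers, 3170 of all 15305 tested genes were called with the replicate block and 2830 without it. With the replicate block on these 4 libraries 13 genes of the set were called, 12 higher and 1 lower, and without the block on the same libraries 12. Bbc3 lost its call in the fit without the block. The genes that gained a call were Xiap, in these 4-library fits with the block (adjusted p 0.0280) and without it (0.0393), and Tnfrsf1a, in both (0.00716 and 0.0125), in DESeq2 (0.0487) and without CRISPRa replicate 5 (0.0306). The genes of the set that changed sign were not among the 11, and the cause was not tested. With the block and without it on the same 4 libraries, the log2 fold change was -0.0049 and -0.0050 for Mcl1, -0.0686 and -0.0692 for Bcl2l11, 0.4069 and 0.4074 for Fas, 0.1198 and 0.1194 for Fadd, and -0.0024 and -0.0023 for Trp53; for Birc2 it was -0.0013 without it. It was 0.022 for Fas with limma-voom and 0.0026 for Fadd with library-size scaling. Leaving out 1 library gave ranges of -0.0032 to 0.032 for Mcl1, -0.047 to 0.15 for Bad, -0.30 to 0.41 for Fas, -0.065 to 0.067 for Fadd and -0.046 to 0.12 for Birc3. At this depth Pmaip1 was not detected, and Casp1, Casp4, Casp12 and Pycard had at most 12 counts in a library.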
